A study of Danio rerio with 4 samples.

Results

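Sugar, organic ion and anion transporters were taken as all genes of 7 solute carrier families, chosen by symbol alone: slc2a (facilitative sugar transporters), slc5a (sodium-coupled sugar, inositol and monocarboxylate transporters), slc34a (sodium-phosphate cotransporters), slc13a (sodium-coupled sulfate and carboxylate transporters), slc22a (organic cation, organic anion and carnitine transporters), slc4a (bicarbonate transporters and anion exchangers) and slc26a (multi-anion exchangers). Within a family every symbol was taken, but the choice itself was made with earlier results of these data known. Of 28357 genes listed in the deposited tables, 82 symbols began with these stems and 79 reached the minimum of 20 UMIs, that is, 20 counted RNA molecules, over 4 libraries. The 3 symbols below it were slc2a1a with 16 UMIs, slc2a15a with 14 and slc2a5 with 13, and the members just above it were slc22a7a with 21 and slc22a5 with 22. The families held 15 members (slc2a), 12 (slc5a), 5 (slc34a), 6 (slc13a), 17 (slc22a), 14 (slc4a) and 10 (slc26a). Of these, slc4a1ap, an adaptor protein gene, and slc34a2aas, named as an antisense transcript of slc34a2a, carry the stem without coding for a transporter.

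Kidneys of adult AB zebrafish were collected 4 days after acute kidney injury (AKI) by intraperitoneal gentamicin, 20 µL per fish of a 2.7 µg/µL solution, and their cells were profiled by BD Rhapsody single-cell RNA sequencing of transcript 3′ ends. The 4 libraries all belong to this 1 condition, so that every comparison is between cell types within injured kidneys and none is between injured and uninjured fish. Nothing in the sources used here says which fish went into which library, and the p-values therefore measure the spread between libraries, which may be technical.

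Libraries 1 and 2 held 9048 and 9831 cells with median depths of 4643.5 and 4358 UMIs, and libraries 3 and 4 held 6308 and 5821 cells with 9953.5 and 9883 UMIs. Libraries 3 and 4 thus stood apart in depth, and 13 mitochondrial protein genes were listed in these libraries only. Libraries 1 and 2 shared 108 cell barcodes, libraries 3 and 4 shared 46, and other pairs shared 1 to 7. Values are given per library for part of the members. Where a mean and SD stand alone, the library pairs may still differ.

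In the nephron, plasma is filtered at the glomerulus and the proximal tubule takes back sugars, phosphate, sulfate, carboxylates and bicarbonate, mostly by carriers driven by the sodium gradient that the basolateral sodium pump sets up. Organic cation and organic anion transporters of the slc22a family carry drugs and metabolites from the blood side of these cells for secretion. The distal tubule adjusts salt and acid-base balance, where anion exchangers of the slc4a family work beside carbonic anhydrases and proton pumps. In red blood cells, Slc4a1 (band 3) exchanges chloride for bicarbonate and anchors the membrane skeleton. The roles given below for single genes come from their mammalian counterparts unless stated otherwise.

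Cells were clustered without the members among the variable genes, and clusters were named from marker lists that did not include any member. Members could still take places among the top 10 genes of a cluster, which the naming rules also read. Clustering and naming gave 372 proximal tubular epithelial cell (PTEC)-like cells, 1110 distal tubular epithelial cell (DTEC)-like cells, 132 renal stem cell (RSC)-like cells, that is, nephron progenitors, and 6027 erythroid-like cells. There were also 604 vascular endothelial cell (VEC)-like, 262 renal interstitial cell (RIC)-like, 1243 kidney mucin-secreting cell (KMSC)-like, 1725 macrophage-like, 9117 neutrophil-like, 2048 B-like, 2043 T-like, 436 NK-like and 449 thrombocyte-like cells, and 5440 of the 31008 cells stayed unnamed. The markers that gave the names were checked class by class: 12 of 12 PTEC markers, 14 of 14 DTEC markers and 8 of 8 erythroid markers found in the files were highest in their own class, and 12 of 13 RSC markers were, wt1a being the exception. Since the same markers named the classes in the same cells, these counts are a description and no independent test of the names. The names rested on weaker ground for NK-like cells, where 4 of 7 markers were highest (not nkl.2, gzmk and gzm3), and for thrombocyte-like cells, with 6 of 7 (not gp9), while in the remaining classes all markers were highest in their own class. The RSC-like class held 38 cells led by interrenal and ovarian follicle genes such as cyp17a1 and cyp19a1a, all from libraries 1 and 2, and its values are given with and without them (94 cells). The DTEC-like class was mixed as well when nephron cells were clustered again. It held 60 cells grouped with most remaining RSC-like cells and 60 of a multiciliated-type sub-cluster. A further 40 were in a sub-cluster led by globin genes, 30 in one led by neutrophil genes and 295 in one led by mitochondrial genes. The erythroid marker hbaa2, an alpha globin, stood at 102.1 counts per 1000000 in PTEC-like and 316.8 in DTEC-like cells, against 28800 in erythroid-like and 70.68 in neutrophil-like cells.

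The PTEC-like cells carried by far the most transporter RNA for their number. Levels are given as UMIs of a gene per 1000000 UMIs (CPM) of the cells of 1 class in 1 library. All members together made up 17893 ± 3258 CPM in PTEC-like cells (mean ± SD over 4 libraries, as for all levels given here), against 1752 ± 186 in DTEC-like, 566 ± 111 in RSC-like, 898 ± 106 in VEC-like and 4681 ± 649 in erythroid-like cells, where slc4a1a, slc4a1ap and slc34a2aas left only 149 ± 29.1 for all others. PTEC-like cells were 1.2% of all cells and held 1.66% of all UMIs, yet 32 of the 79 members had more than 50% of their UMIs there, against 1.59% of all 25230 genes with at least 20 UMIs. For 16 members the share exceeded 90%, against 0.313% of all genes. Among the 32, slc13a2 counts through 1 cell, as given below. slc4a1a in erythroid-like cells alone made up 43.1% of all member UMIs. Since the reads come from transcript 3′ ends, the levels compare 1 gene between cells and were not used to rank genes against each other.

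Of the 79 members, 38 had their highest mean level in PTEC-like cells, against 9.98% of all genes, and for 32 of these the 4 libraries did not overlap those of the next class, against 2.94% of all genes. The next class is the named class with the second highest mean, RSC-like cells being taken without the 38 cells. The other members were highest in macrophage-like (8 members, against 6.54% of all genes), RIC-like (7, 12.1%), DTEC-like (5, 8.01%), RSC-like without the 38 cells (4, 17.6%), VEC-like (4, 11.6%), thrombocyte-like (3, 8.03%), B-like (2, 5.14%), NK-like (2, 4.23%), T-like (2, 7.48%), erythroid-like (2, 3.44%) and neutrophil-like cells (2, 3.87%). Outside the PTEC-like class, only 7 members were clear of the next class in every library. These were slc4a2a and slc5a3b in DTEC-like (2.01% of all genes were highest there without overlap), slc2a6 and slc2a13b in macrophage-like (2.09%), slc22a31 in VEC-like (1.21%), slc26a2 in neutrophil-like (1.48%) and slc4a1a in erythroid-like cells (0.852%), and over all classes 18% of all genes were clear of the next class. For 2 of the 7, the lowest library of the peak class was still below single libraries of RSC-like cells, a class with a lower mean: slc22a31 at 36.4 CPM in VEC-like cells of library 1, against 48.7 in RSC-like cells of library 4, and slc26a2 at 10.7 in neutrophil-like cells of library 2, against 15.0 in RSC-like cells of library 4. The same held for slc2a9l2 among the 32 PTEC-like members, at 3.02 CPM in PTEC-like cells of library 3, against 3.36, from 1 UMI, in RSC-like cells of library 2. By family, the PTEC-like class was the peak of 8 of 15 slc2a, 8 of 12 slc5a, 3 of 5 slc34a, 4 of 6 slc13a, 9 of 17 slc22a, 2 of 14 slc4a and 4 of 10 slc26a members, so that the bicarbonate transporters were the family with the fewest peaks there. Of the 38 peaks, slc13a2 and slc34a2a rested almost wholly on 1 cell, as given below, and slc26a3.2 on 5 UMIs.

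**Figure D1:**
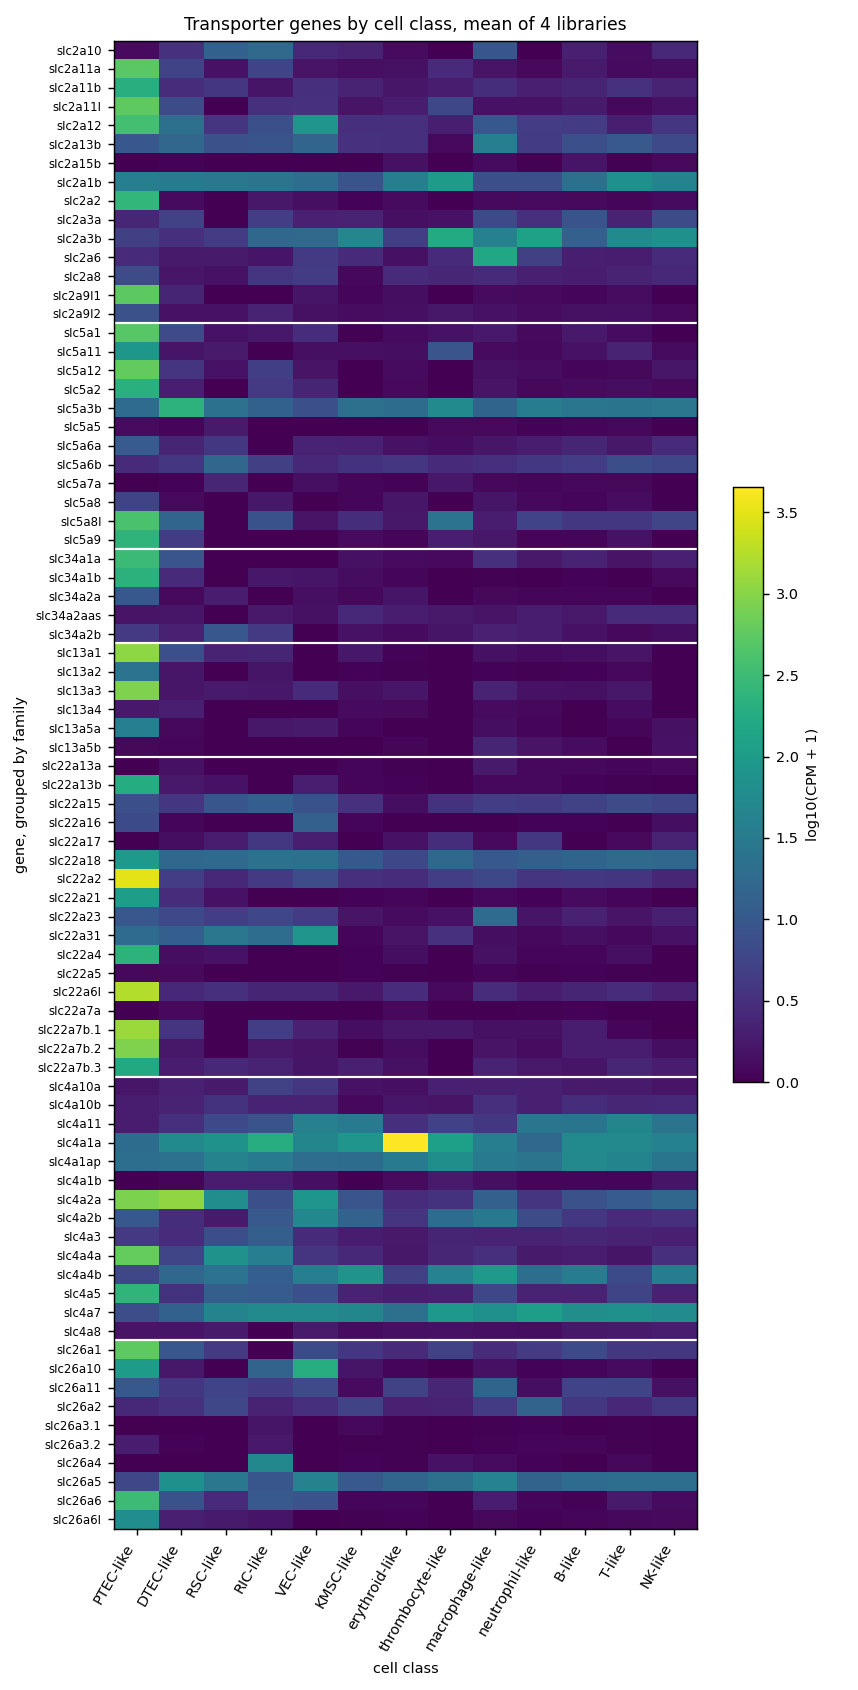
Level of each of the 79 members (rows, grouped by family with white lines between families) in 13 cell classes (columns), as log10 of UMIs per 1000000 UMIs (CPM) plus 1, mean of 4 libraries. The PTEC-like column is the brightest for 38 members, and the erythroid-like column stands out for slc4a1a.

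PTEC-like cells were compared with all other cells of the same libraries, to ask which members are proximal tubule transporters in these kidneys. Among the 67 members that passed the filter on low counts, 43 were higher in PTEC-like cells (19.1% of the 19716 genes tested were), 10 were lower (23.9% of all genes) and 14 were not called, by edgeR at an adjusted p of 0.05. The median log2 fold change was 4.45 over these members and -0.28 over all genes tested. The 12 members that did not pass the filter were slc2a15b, slc4a1b, slc5a5, slc5a7a, slc13a2, slc13a4, slc22a5, slc22a7a, slc22a13a, slc26a3.1, slc26a3.2 and slc26a4. Members high in PTEC-like cells were more likely to be tested, since a gene could pass the filter through its PTEC-like sums alone. TMM factors moved the median of all genes by 0.165 on the log2 scale here and by 0.108 for DTEC-like cells. With libraries 1 and 2 alone 42 members were higher and 10 lower, and with libraries 3 and 4 alone 45 and 10.

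The organic ion transporters were the family with the most members higher, 12 of 17. slc22a7b.2, a homolog of the organic anion transporter OAT2, stood at 753, 1033, 901 and 819 CPM in PTEC-like cells of libraries 1 to 4, against 0.531, 0.513, 0.104 and 0.18 in all other cells (log2 fold change 11.53, SE 0.68, edgeR adjusted p = 1.71e-06). Its neighbour in name slc22a7b.1 stood at 1518, 1627, 1016 and 933 CPM, against 1.3, 0.889, 0.197 and 0.192 in other cells (log2 fold change 11.07, SE 0.87, edgeR adjusted p = 9.81e-06). The libraries did not overlap between PTEC-like and other cells for either gene. How reads shared by near-identical copies were counted is not given in the sources used here, so that the split among slc22a7b.1, slc22a7b.2 and slc22a7b.3 (164 ± 67.8 CPM) is uncertain, while slc22a7a, the other copy, had 21 UMIs in all cells together.

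slc22a2, the organic cation transporter through which mammalian tubules take up cationic drugs, reached 3564, 4008, 2776 and 2558 CPM in PTEC-like cells, against 2.79 ± 1.3 in other cells. It was found in 87.9% of PTEC-like cells (95% Clopper-Pearson interval 84.2 to 91%), against 2.07% of DTEC-like and 1.65% of neutrophil-like cells. Neutrophils should lack the gene and serve here as the background of free RNA. The median depths were 9156.5 UMIs in PTEC-like, 6849 in DTEC-like and 6814 in neutrophil-like cells, and after thinning each cell to 2000 UMIs, which left out 35, 132 and 393 shallower cells of these classes, the shares were 79.8%, 0.839% and 0.578%. These intervals cover counting error only. slc22a6l, related to the organic anion transporter OAT1, had 3574, 2079.8, 551 and 598 CPM in PTEC-like cells of libraries 1 to 4, against 1.15 ± 1.09 in other cells. Its lowest PTEC-like library was far above every library of other cells, yet the PTEC-like libraries themselves spanned a wide range. Of the others, slc22a4 (a carnitine and ergothioneine transporter family member) had 228 ± 112, slc22a13b 179 ± 64.1, slc22a21 107 ± 60.6 and slc22a18 90 ± 43 CPM in PTEC-like cells, against 12.2 ± 0.923 in other cells for slc22a18, the least restricted of these 4.

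Among the sugar transporters, 9 of 15 slc2a and 8 of 12 slc5a members were higher in PTEC-like cells. slc5a1, the sodium-glucose cotransporter SGLT1, stood at 509, 574, 504 and 453 CPM, against 0.504 ± 0.15 in other cells, with similar levels in all 4 libraries. slc5a2, the sodium-glucose cotransporter SGLT2, stood at 346, 331, 27.9 and 131 CPM, against 0.246 ± 0.104. It was found in only 11% of PTEC-like cells (interval 8.03 to 14.7%) and 0.132% of neutrophil-like cells, while slc5a1 was found in 71.2% and 0.175%. slc2a2 (GLUT2, the facilitative carrier by which glucose leaves the tubule cell on the blood side) had 320.2, 337, 189 and 187 CPM, against 0.795 ± 0.828. The highest library of other cells for slc2a2, library 1, holds most of a separate, unnamed cluster of 21 cells from libraries 1 and 2 led by plasma protein genes, in which slc2a2 stood at 246 and 122 CPM.

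slc2a9l1, a homolog of the urate and sugar transporter GLUT9, stood at 764, 758, 313 and 339 CPM in PTEC-like cells, against 0.462, 0.257, 0.081 and 0.128 in other cells (log2 fold change 11.32, SE 0.71, edgeR adjusted p = 2.53e-06). Its paralog slc2a9l2 had 7 ± 2.87 CPM, against 0.511 ± 0.277, and was also higher. The 3 genes of the slc2a11 group were all high, slc2a11a at 521 ± 47.3, slc2a11b at 200.2 ± 15.6 and slc2a11l at 553 ± 141 CPM, and slc2a12 (GLUT12) stood at 358 ± 70.2. Of the monocarboxylate carriers, slc5a12, which in mammals takes up lactate, stood at 713, 797, 391 and 485 CPM, against 0.582, 0.274, 0.289 and 0.462 in other cells (log2 fold change 10.66, SE 0.42, edgeR adjusted p = 2.38e-07). slc5a8l, of the related lactate transporter group, had 396 ± 112, slc5a9 (SGLT4, a mannose and fructose carrier) 237 ± 99.3 and slc5a11 (an inositol transporter) 84.4 ± 27.4 CPM in PTEC-like cells. All 4 libraries of each were above all 4 libraries of other cells.

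The sulfate and carboxylate family contributed 3 of 6 members. slc13a1, the sodium-sulfate cotransporter, stood at 297, 492, 1889 and 1683 CPM, against 0.24, 0.239, 1.24 and 0.628 in other cells (log2 fold change 11.08, SE 1.08, edgeR adjusted p = 3.81e-05). Libraries 3 and 4 were several times libraries 1 and 2, and even the lowest was far above other cells. slc13a3, which in mammals brings dicarboxylates into the cell from the blood side, stood at 1173, 917, 713 and 767 CPM, against 0.667, 0.428, 0.474 and 0.59 (log2 fold change 10.82, SE 0.31, edgeR adjusted p = 9.01e-08). It was detected in 75.8% of PTEC-like cells, 0.631% of DTEC-like and 0.395% of neutrophil-like cells. slc13a5a, a citrate transporter, had 36.4 ± 19.5 CPM in PTEC-like cells, and its paralog slc13a5b was not called. slc13a2, the apical dicarboxylate transporter, had 118 UMIs in PTEC-like cells, of which 113 (95.8%) lay in a single cell of library 4.

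Both sodium-phosphate cotransporter genes of the type that reclaims filtered phosphate were higher in PTEC-like cells. slc34a1a stood at 705, 439, 46.8 and 34.8 CPM, against 0.971 ± 0.392 in other cells, and slc34a1b at 238, 369.6, 112 and 155, against 0.147 ± 0.0348. The pair differed in spread: slc34a1a was found in 19.6% and slc34a1b in 46.2% of PTEC-like cells, and in 0.581% and 0.0219% of neutrophil-like cells. slc34a2a, the intestinal and lung type, passed the test as higher in PTEC-like cells, but in only 2 of 4 libraries, and 46 of its 47 UMIs (97.9%) came from the same single cell of library 4 that held slc13a2. Among 53 members with at least 20 UMIs in PTEC-like cells, these 2 were the only ones with more than 50% of them in 1 cell.

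Bicarbonate and anion transporters were divided. slc4a4a (NBCe1, through which bicarbonate leaves the proximal cell) stood at 259, 313, 913 and 1014 CPM in PTEC-like cells, against 1.58 ± 0.524 in other cells, while its paralog slc4a4b was lower, at 5.06 ± 3.15 against 46 ± 6.12. slc4a5, a related sodium bicarbonate transporter, stood at 489, 387, 6.03 and 88.6 CPM, against 1.87 ± 0.221. Library 3 came within a few CPM of other cells. slc4a2a, the chloride-bicarbonate exchanger AE2, stood at 785, 810, 919 and 937, against 44.8 ± 13.2, and its paralog slc4a2b was not called. In the slc26a family, 5 of 10 members were higher, with slc26a1 (sulfate and oxalate exchange) at 561 ± 154, slc26a6 (chloride exchange for oxalate, formate or bicarbonate) at 321 ± 158, slc26a6l at 61.3 ± 41.1 and slc26a10 at 105 ± 39.7 CPM in PTEC-like cells. Against them, slc26a2 (a sulfate transporter) and slc26a5 were lower.

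Of the 10 members lower in PTEC-like cells, several were genes of blood cells. slc4a1a (band 3) stood at 21.2, 22.8, 23.4 and 6.33 CPM in PTEC-like cells, against 523, 512, 919 and 967 in other cells, 85.3% of all its UMIs being in erythroid-like cells (log2 fold change -5.16, SE 0.42, edgeR adjusted p = 1.16e-05), and at 16 in neutrophil-like cells. slc2a6, a lysosomal sugar transporter, had 1.82 ± 2.62, against 28.3 ± 8.9 (log2 fold change -4.06, SE 0.68, edgeR adjusted p = 0.00115). slc2a3b, a homolog of the high-affinity glucose transporter GLUT3, had 3.96 ± 1.37, against 55.2 ± 8.85 (log2 fold change -3.61, SE 0.29, edgeR adjusted p = 1.10e-05), and its paralog slc2a3a was not called. slc4a7, an electroneutral sodium bicarbonate cotransporter, had 6.49 ± 2.84, against 66.3 ± 6.64 (log2 fold change -3.16, SE 0.26, edgeR adjusted p = 1.20e-05). For slc4a11 the values were 0.97 ± 1.17 and 15.8 ± 8.79 (log2 fold change -3.72, SE 0.80, edgeR adjusted p = 0.00476). slc22a17, a lipocalin receptor, had no UMI in PTEC-like cells, which puts it at least 1.63-fold lower from a floor of 3 counts over the class (edgeR adjusted p = 0.0325). That call was lost in several alternatives, among them edgeR with the library as a block (adjusted p = 0.0581) and DESeq2 (adjusted p = 0.0534).

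**Figure D2:**
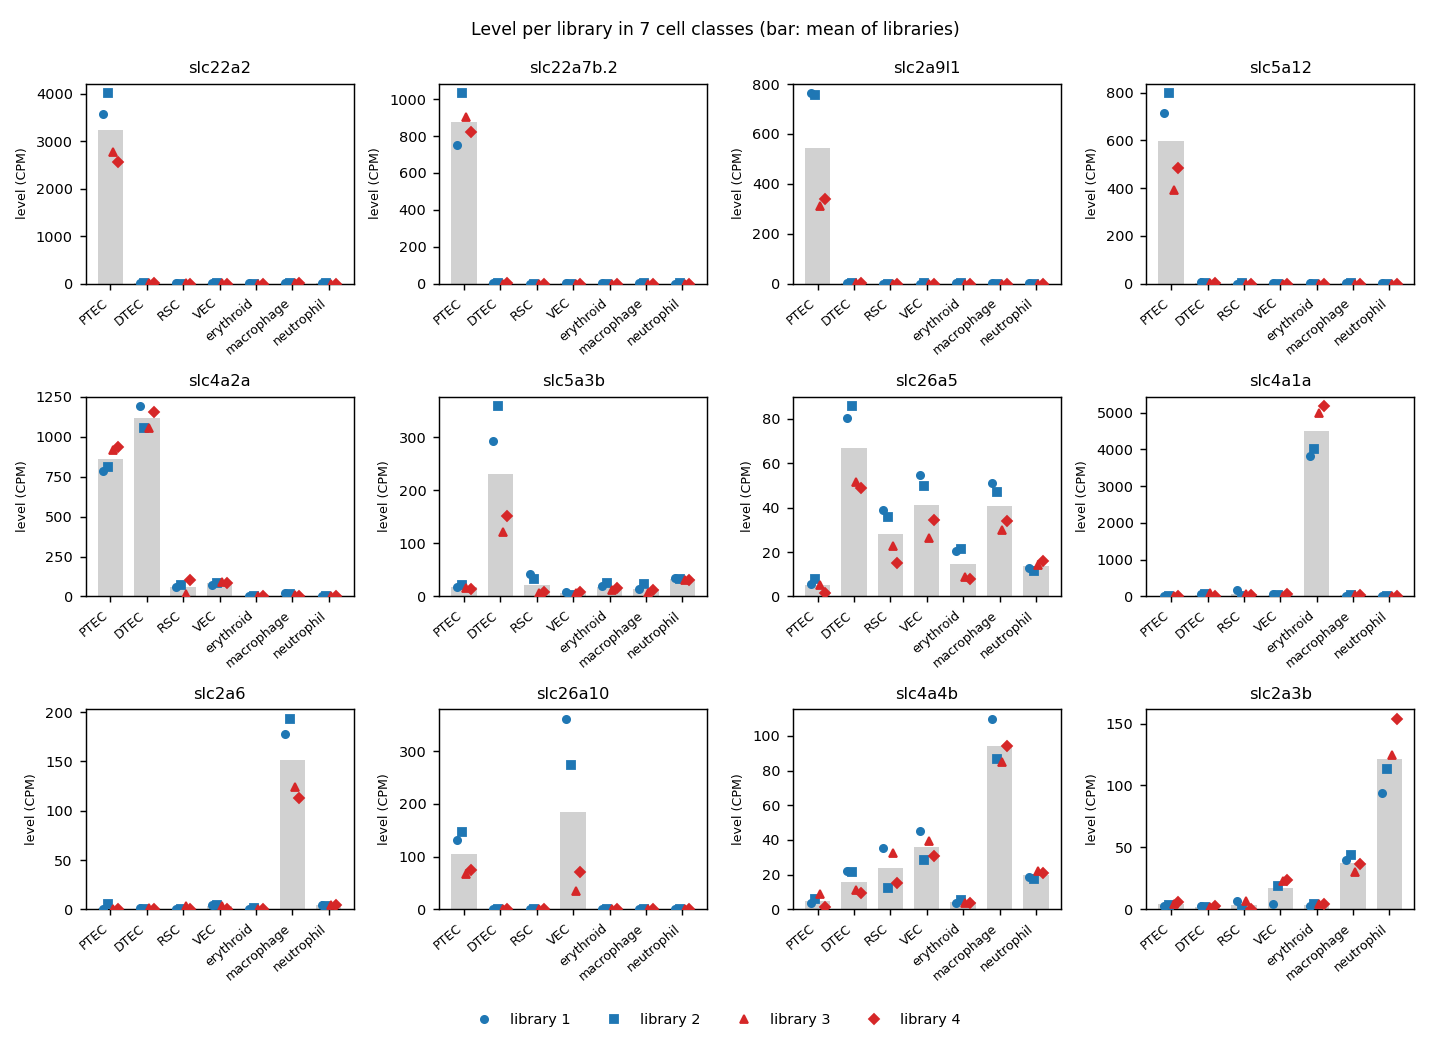
CPM of 12 members in PTEC-, DTEC-, RSC-, VEC-, erythroid-, macrophage- and neutrophil-like cells, with 1 point per library and a bar at the mean of 4 libraries. slc22a2 lies between 2558 and 4008 in PTEC-like cells, slc4a2a is high in both tubule classes, and slc4a1a lies between 3830 and 5183 in erythroid-like cells.

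The PTEC-like cells were not uniform in their transporters. Clustering the nephron cells again, without the members, divided most of them into 3 sub-clusters, of 213 cells led by slc24a3, 35 cells led by chia.1 and 35 cells led by tdo2b, and another of 67 cells with a median of 3336 UMIs was led in part by mitochondrial genes. The chia.1-led cells, with a median of 15547 UMIs, also had tcnl, apobb.1, apoa4b.2 and apoea among their leading genes. Their PTEC markers averaged a log2 ratio of 3.83 over other cells, against 5.39 in slc24a3-led and 3.37 in tdo2b-led cells. Whether all are proximal tubule cells was not tested. The chia.1-led sub-cluster had 14, 13, 4 and 4 cells in libraries 1 to 4, and the tdo2b-led one 9, 9, 10 and 7, so that single values there rest on few cells and no test was made between sub-clusters. Of the 35 members with at least 100 UMIs in PTEC-like cells, 18 were highest in the slc24a3-led sub-cluster, against 34.8% of 5154 genes with as many UMIs, 16 in the chia.1-led one, against 40.4%, 1 in the tdo2b-led one, against 23%, and none in the sub-cluster of 67 cells, against 1.8%.

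The 2 sodium-glucose cotransporters had their highest mean levels in different sub-clusters. slc5a2 stood at 1759, 1846, 385 and 1449 CPM in chia.1-led cells of libraries 1 to 4, against 0, 0, 0 and 1.08 in slc24a3-led cells and 0 in all libraries in tdo2b-led cells. slc5a1 stood at 722, 776, 639.9 and 526 in slc24a3-led cells, against 109.6, 6.5, 249.9 and 566 in chia.1-led cells. The libraries did not overlap for slc5a2, and for slc5a1 they did, through library 4. The phosphate pair was divided in the same way, with slc34a1a at 3385, 2359, 489 and 292 CPM in chia.1-led and 15.1, 25.6, 14.3 and 11.8 in slc24a3-led cells. slc34a1b was at 0 in every library of chia.1-led cells and at 343, 518, 135 and 198 in slc24a3-led cells. Neither gene of this pair overlapped between the sub-clusters in any library.

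The chia.1-led cells also held slc4a5, at 2554, 2171, 62.5 and 989.7 CPM, against 0, 0, 2.2 and 0 in slc24a3-led cells. slc26a6l was at 576, 455, 62.5 and 654 in chia.1-led and 0, 0, 1.1 and 0 in slc24a3-led cells. slc5a12 (lactate uptake) was at 1809, 2775, 1166 and 1608 in chia.1-led cells, and slc22a13b at 439 ± 76.1. The slc24a3-led cells in turn held slc13a1, at 426, 704, 2276 and 2137 CPM, against 0, 0, 10.4 and 0 in chia.1-led cells. slc22a7b.2 was at 1028, 1353, 1169 and 1059 in slc24a3-led and 22.8, 0, 20.8 and 0 in chia.1-led cells. slc22a6l was at 4492, 2368, 582 and 762 in slc24a3-led cells, the library spread seen in the whole class. slc22a2 was common to the sub-clusters, at 4569, 5129, 3448 and 3206 in slc24a3-led, 5603, 5222, 2766 and 2025 in tdo2b-led and 1713, 1157, 469 and 97.2 in chia.1-led cells, the lowest of the 3 in every library.

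The tdo2b-led cells combined high slc2a9l1, at 1081, 1722, 802 and 1039.7 CPM, with slc22a16, a carnitine transporter, at 72.1, 18.7, 68.4 and 86.6. They shared slc34a1b with the slc24a3-led cells, at 342, 281, 137 and 108, and slc13a1, at 306, 262, 2213 and 1007, both overlapping the slc24a3-led libraries. slc22a7b.2 was at 1802, 1890.4, 522 and 357 there, also overlapping. slc5a2, slc34a1a, slc4a5, slc22a13b and slc26a6l were at 0 there in all 4 libraries. slc13a3 was at 89 ± 37.4, and slc4a4a at 87.9, against 769 in slc24a3-led cells. slc4a2a was present in all 3, at 986 ± 47 in slc24a3-led, 927 ± 515 in chia.1-led and 607 ± 284 in tdo2b-led cells.

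**Figure D3:**
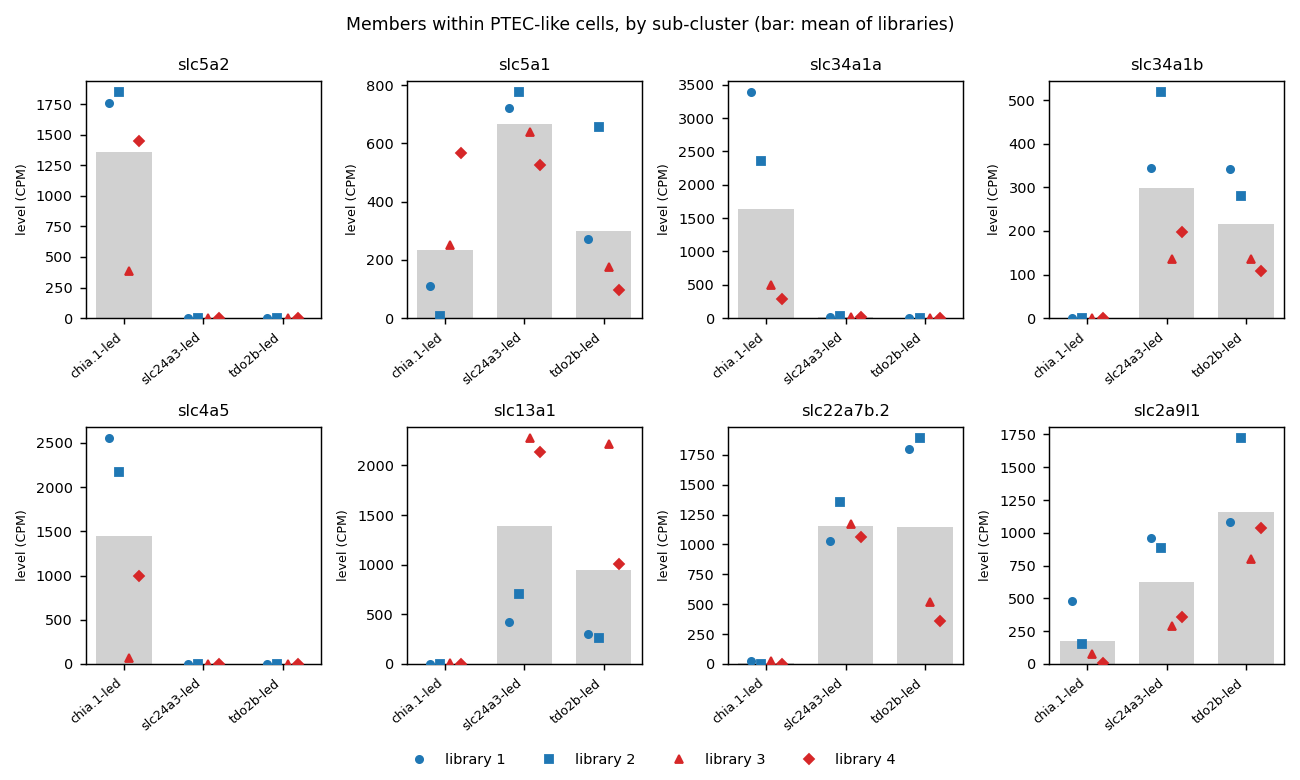
CPM of 8 members in the chia.1-led (35 cells), slc24a3-led (213 cells) and tdo2b-led (35 cells) PTEC-like sub-clusters, with 1 point per library and a bar at the mean. slc5a2, slc34a1a and slc4a5 are high in chia.1-led cells, and slc5a1, slc34a1b, slc13a1 and slc22a7b.2 are high in slc24a3-led and present in tdo2b-led cells.

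Within PTEC-like cells the library pairs differed for many members. Of the 35 members with at least 100 UMIs, 5 were higher in both of libraries 3 and 4 than in both of libraries 1 and 2 (18.7% of 5154 genes), and 25 were lower (52.1%). Some members given above only as mean ± SD are among them, such as slc22a4 (0.411-fold), slc26a6 (0.511-fold) and, the other way, slc26a1 (1.61-fold). For 7 members the pair means differed by over 3-fold without overlap of the pairs, against 8.36% of genes. slc34a1a averaged 40.8 CPM in libraries 3 and 4 and 572 in libraries 1 and 2 (0.0713-fold), slc4a5 47.3 and 438 (0.108-fold), slc5a2 79.2 and 338 (0.234-fold) and slc22a6l 575 and 2827 (0.203-fold). The other way, slc13a1 averaged 1786 CPM in libraries 3 and 4 and 394 in libraries 1 and 2 (4.53-fold), slc4a4a 964 and 286 (3.37-fold), and slc13a2 rested on 1 cell. The chia.1-led sub-cluster, which held slc34a1a, slc4a5 and slc5a2, made up 5.71% and 5.97% of PTEC-like cells in libraries 3 and 4, against 10.5% and 12.7% of those in libraries 1 and 2. Its part in these differences was not tested, and within that sub-cluster slc34a1a also differed, at 489 and 292 CPM (libraries 3 and 4), against 3385 and 2359 CPM (libraries 1 and 2). The pairs also differ in depth, and depth and fish cannot be told apart here. Mitochondrial protein genes listed in libraries 3 and 4 only enter the UMI totals behind CPM in these libraries alone. Their part in the differences was not tested.

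**Figure D4:**
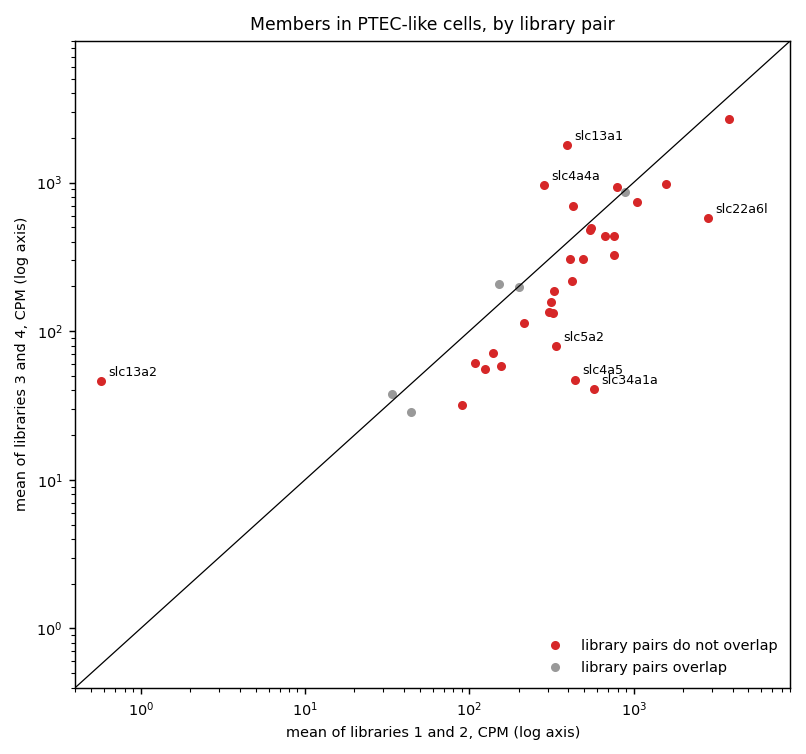
Mean CPM in PTEC-like cells of libraries 1 and 2 (x axis, log scale) and of libraries 3 and 4 (y axis, log scale) for 35 members, in red where the pairs do not overlap, with names for differences over 3-fold. slc34a1a, slc4a5, slc5a2 and slc22a6l lie below the diagonal, and slc13a1, slc4a4a and slc13a2 above it.

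DTEC-like cells had a much smaller set of their own. Of 65 members tested against all other cells, 8 were higher (20.1% of the 20464 genes tested were), 17 were lower (24.6% of all genes) and 40 were not called by edgeR, with a median log2 fold change of -0.79 over these members and -0.21 over all genes tested. slc4a2a (AE2) stood at 1192, 1055, 1055 and 1157 CPM in DTEC-like cells, against 22.8, 17.6, 18.7 and 19.9 in other cells (log2 fold change 5.93, SE 0.26, edgeR adjusted p = 5.48e-07). It was found in 53.9% of DTEC-like cells (interval 50.9 to 56.8%) and 1.13% of neutrophil-like cells. slc5a3b, a sodium-inositol cotransporter known in mammalian kidney from the response to high salt, stood at 293, 359, 121 and 151 CPM, against 29.9, 31, 20.8 and 23.2 (log2 fold change 3.14, SE 0.29, edgeR adjusted p = 2.55e-05). slc26a5, whose mammalian counterpart prestin is the motor protein of cochlear hair cells, stood at 80.3, 85.8, 51.8 and 48.9, against 16.3, 15.5, 14.4 and 14.3 (log2 fold change 2.19, SE 0.15, edgeR adjusted p = 4.66e-06). None of the 3 overlapped between DTEC-like and other cells. slc5a3b and slc26a5 were also present in neutrophil-like cells, slc5a3b being found in 40% of DTEC-like and 16.3% of neutrophil-like cells and slc26a5 in 23.1% and 9.07%.

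Lower levels marked the rest of the 8. slc22a31 stood at 10.6, 9.21, 14.1 and 11.3 CPM in DTEC-like cells, against 1.59 ± 0.556 in other cells (log2 fold change 3.0, SE 0.36, edgeR adjusted p = 1.51e-04). slc2a13b, a proton-inositol cotransporter homolog, had 15.3 ± 2.81, against 7.57 ± 1.37 (log2 fold change 1.12, SE 0.21, edgeR adjusted p = 0.00228). slc22a23 had 5.45 ± 0.502, against 2.56 ± 0.597 (log2 fold change 1.23, SE 0.31, edgeR adjusted p = 0.0103), a call that was lost without library 4. The other 2 were slc2a1b (GLUT1, 31.2 ± 4.65 against 16.9 ± 1.32 CPM) and slc2a12.

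The lower calls depended on what DTEC-like cells were compared with. slc2a6 had 0.812 ± 0.433 CPM in DTEC-like cells, against 28.8 ± 8.69 (log2 fold change -5.10, SE 0.43, edgeR adjusted p = 1.54e-05), and slc2a3b 2.24 ± 0.338, against 56.3 ± 9.47 (log2 fold change -4.52, SE 0.21, edgeR adjusted p = 7.71e-07), slc2a6 being highest in macrophage-like and slc2a3b in thrombocyte-like and neutrophil-like cells. slc22a6l had 1.64 ± 1.68, against 33.2 ± 33.5 (log2 fold change -4.62, SE 1.06, edgeR adjusted p = 0.00648). slc22a7b.2 had 0.705 ± 0.591, against 15.3 ± 1.48 (log2 fold change -4.33, SE 0.61, edgeR adjusted p = 4.18e-04), and slc13a3 and slc22a2 were similar in size (log2 fold change -4.31, SE 0.61, edgeR adjusted p = 3.94e-04, and -3.95, SE 0.36, edgeR adjusted p = 2.71e-05). All 4 of these transporters are PTEC-like cell genes, and the reference holds the PTEC-like cells. With PTEC-like and erythroid-like cells left out of the reference, an alternative chosen after seeing the data, these 4 turned to positive log2 fold changes that were not called. Over the 58 members tested both ways, 6 were then lower in place of 16, all 6 among the 16, and 21 were higher in place of 8, the 8 among them. Shares over all genes are given for the full reference only, so that these counts cannot be set against such a share.

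PTEC-like cells were then set directly against DTEC-like cells. Of the 40 members that passed the filter in this smaller fit, 30 were higher in PTEC-like cells (18.7% of the 9725 genes tested were) and 4 were lower (20.7% of all genes), with a median log2 fold change of 6.39 over these members and -0.06 over all genes tested. The other 39 members were not tested. A gene could pass the filter through its PTEC-like sums alone, so that members high there were more likely to be tested. The count and the median are limited by this. The 6 largest were slc22a6l, slc22a7b.2, slc13a3, slc22a2, slc2a2 and slc22a7b.1, with log2 fold changes from 8.94 to 10.08. For example, slc22a2 had 3226 ± 677 CPM in PTEC-like and 3.66 ± 2.02 in DTEC-like cells (log2 fold change 9.64, SE 0.44, edgeR adjusted p = 1.35e-06), and slc2a2 had 258 ± 81.6 and 0.289 ± 0.578 (log2 fold change 8.94, SE 0.65, edgeR adjusted p = 8.75e-06). For all 6, every PTEC-like library was above every DTEC-like one.

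The 4 members lower in PTEC-like than in DTEC-like cells included 2 inositol carriers. slc5a3b stood at 18.1, 21.7, 16.6 and 14.2 CPM in PTEC-like cells, against 293, 359, 121 and 151 in DTEC-like cells (log2 fold change -3.73, SE 0.24, edgeR adjusted p = 4.96e-06), and slc2a13b at 8.88 ± 2.69, against 15.3 ± 2.81 (log2 fold change -0.94, SE 0.28, edgeR adjusted p = 0.0236). For slc2a13b the libraries of the segments overlapped. slc26a5 stood at 5.49, 7.99, 5.28 and 1.58 in PTEC-like cells, against 80.3, 85.8, 51.8 and 48.9 in DTEC-like cells (log2 fold change -3.82, SE 0.32, edgeR adjusted p = 1.86e-05). slc4a4b had 5.06 ± 3.15, against 15.9 ± 6.58 (log2 fold change -1.66, SE 0.43, edgeR adjusted p = 0.0122), the reverse of its paralog slc4a4a. slc4a2a, present in both segments, had 863 ± 76.6 CPM in PTEC-like and 1115 ± 70.3 in DTEC-like cells. Its libraries did not overlap, yet the difference was not called (log2 fold change -0.51, SE 0.27, edgeR adjusted p = 0.17).

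Along the distal tubule, slc4a2a followed 1 sub-cluster. The 87 cells led by slc9a3.2, with gata3, a transcription factor gene of the distal nephron, the ammonium channel genes rhcgb and rhbg and the carbonic anhydrase gene ca4c also among their leading genes, had slc4a2a at 4572, 4649.9, 4153 and 4727 CPM and a UMI in 100% of cells. The 141 cells led by krt91, with slc12a10.3 and atp1a1a.5, had 1496 ± 314, the 250 cells led by slc12a1 had 884 ± 248 and the 137 cells led by ccl20a.3 had 405 ± 50.5. The slc9a3.2-led cells were above all others in every library. slc26a5 was highest in krt91-led cells, at 272, 279, 114 and 167 CPM, against 114, 86.2, 146 and 78.3 in slc9a3.2-led and 69.5 ± 18.4 in slc12a1-led cells, overlapping with slc9a3.2-led cells. slc5a3b was at 435, 831, 408 and 280.2 in slc9a3.2-led and 585, 543, 159 and 256 in slc12a1-led cells, which overlapped. slc5a8l appeared in krt91-led cells of libraries 3 and 4 at 109.8 and 128 CPM, against 0 and 6.97 in libraries 1 and 2. Its 107 UMIs there lay in only 13 of the 141 cells.

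**Figure D5:**
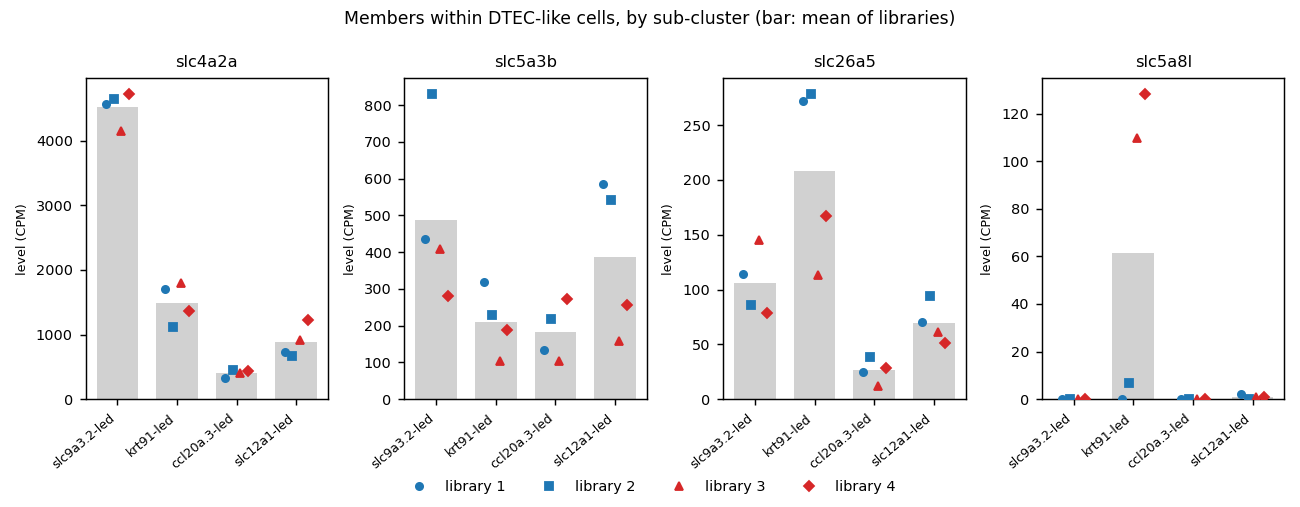
CPM of slc4a2a, slc5a3b, slc26a5 and slc5a8l in the slc9a3.2-led (87 cells), krt91-led (141 cells), ccl20a.3-led (137 cells) and slc12a1-led (250 cells) DTEC-like sub-clusters, with 1 point per library and a bar at the mean. slc4a2a lies between 4153 and 4727 in slc9a3.2-led cells, above all other sub-clusters.

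DTEC-like sub-clusters with slc12a3 (the thiazide-sensitive sodium-chloride cotransporter) in at least 25% of their cells were compared with the other DTEC-like cells. The positive ones were the slc12a1-led sub-cluster (250 cells, 45.6% with slc12a3) and 1 of 300 cells led by mitochondrial genes, which barely passed at 25.7%. Of these 300 cells, 56 and 57 were from libraries 1 and 2, where the mitochondrial protein genes were not listed. In this comparison 13 members passed the filter. Of these, 2 were higher (5.6% of the 9091 genes tested were), none was lower (5.68% of all genes) and 11 were not called, with a median log2 fold change of 0.05 over these members and 0.01 over all genes tested. slc5a3b had 293 ± 200 CPM in slc12a3-positive and 196 ± 64.1 in slc12a3-negative cells, higher in 2 of 4 libraries (log2 fold change 1.21, SE 0.31, edgeR adjusted p = 0.0327). slc34a1a had 11.2 ± 3.38 and 5.15 ± 4.76, higher in 3 of 4 libraries (log2 fold change 2.18, SE 0.60, edgeR adjusted p = 0.0428). Both calls were lost with library sizes left without TMM factors, factors that moved the median of all genes by 0.865 on the log2 scale here and without which 62 genes were higher and 2164 lower in place of 509 and 516. For the lower direction, 1 member had an unadjusted edgeR p under 0.05, edgeR with the library as a block called 1 and DESeq2 called 2. slc4a2a stood at 668, 599, 617 and 821 CPM in slc12a3-positive cells, against 1488 ± 92.4 in slc12a3-negative cells, where the slc9a3.2-led cells are. The libraries did not overlap and the difference was not called (log2 fold change -0.24, SE 0.34, edgeR adjusted p = 0.744).

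RSC-like cells carried less transporter RNA than the tubule classes. All members together stood at 566 ± 111 CPM there, the 38 cells included, which was not below neutrophil-like cells at 460 ± 73.1. Of 63 members tested against all other cells, 4 were higher (10.9% of the 18948 genes tested were), 23 were lower (16.2% of all genes) and 36 were not called by edgeR, with medians of -2.01 over these members and -0.23 over all genes on the log2 scale. TMM factors moved the median of all genes by -0.53 here, and without them 3503 genes were higher and 2000 lower in RSC-like cells in place of 2064 and 3076, and 5 members were higher and 19 lower. slc34a2b, a phosphate cotransporter, stood at 9.71, 12.6, 9.81 and 3.75 CPM in RSC-like cells, against 0.963 ± 0.186 in other cells (log2 fold change 2.74, SE 0.47, edgeR adjusted p = 0.00211). slc2a10, a homolog of GLUT10, stood at 12.9, 10.5, 19.6 and 7.49, against 1.31 ± 0.431 (log2 fold change 2.73, SE 0.48, edgeR adjusted p = 0.00241). All 4 libraries of both genes were above other cells. Without the 38 cells of follicle and interrenal type they stood at 11.1 ± 5.67 and 14 ± 6.07 CPM and were still called, while without the cells with the highest doublet scores slc2a10 was not (edgeR adjusted p = 0.0764), nor was slc34a2b with libraries 3 and 4 alone (0.115). At sums of 266919 to 477299 UMIs per library, such levels are a few molecules.

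The other 2 members higher in RSC-like cells rested on part of the class. slc22a31 stood at 12.9, 39.8, 9.81 and 48.7 CPM, against 1.81 ± 0.751 (log2 fold change 3.43, SE 0.59, edgeR adjusted p = 0.00219). In the 38 cells it stood at 42.6 and 100.2 in libraries 1 and 2, and without them at 0, 3.36, 9.81 and 48.7, where it was not called (edgeR adjusted p = 0.0582). slc4a4a stood at 93.8, 18.9, 105 and 71.2, against 11.3 ± 6.04 (log2 fold change 2.11, SE 0.54, edgeR adjusted p = 0.0171), and without the 38 cells at 58 ± 37.4. It was not called without the highest doublet scores (log2 fold change 0.25, edgeR adjusted p = 0.838) and also without library 1 (0.109) or library 3 (0.0682). In the sub-cluster of 157 nephron cells to which most remaining RSC-like cells belong, with 87 RSC-like, 60 DTEC-like and 10 PTEC-like cells and an mki67 UMI in 47.8% of cells, slc4a4a stood at 28, 28.8, 57 and 58.3 CPM.

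Several proximal genes were not detected in any RSC-like cell. From a floor of 3 counts over the class, slc22a7b.1 was at least 9.62-fold lower than in all other cells, slc22a7b.2 at least 6.65-fold, slc2a11l at least 4.42-fold, slc5a8l at least 4.17-fold, slc2a9l1 at least 4.04-fold and slc2a2 at least 2.22-fold lower, all called by edgeR. The reference includes the PTEC-like cells, which hold from 69.8% (slc5a8l) to 98.0% (slc22a7b.2) of the UMIs of these genes. The bounds therefore rest mainly on PTEC-like cells and do not place RSC-like cells below the remaining cells. slc22a2 had 1.63 ± 1.88 CPM in RSC-like cells, against 57.5 ± 18. With PTEC-like and erythroid-like cells left out of the reference, 8 of the 48 members tested both ways were lower in place of 16, of which 6 were lower in both. For this reference, too, there is no share over all genes to set beside the counts. slc4a2a, high in both tubule classes, had 61.2 ± 35 CPM in RSC-like cells, against 58.4 ± 13.7, and was not called.

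In erythroid-like cells a single member stood out. slc4a1a reached 3829.7, 4001, 4985 and 5183 CPM, against 116, 102, 141 and 144 in other cells (log2 fold change 5.81, SE 0.22, edgeR adjusted p = 5.44e-07), with no overlap. It was found in 59.7% of erythroid-like cells, whose median depth was 1398 UMIs, and in 7.34% of neutrophil-like cells at 6814 UMIs. Thinned to 2000 UMIs, which left out 3246 erythroid-like and 393 neutrophil-like cells, the shares were 96.6% and 2.61%. The erythroid-like shares before and after thinning are thus of different cells, and their difference is not one of depth alone. The shallowest erythroid-like cluster, given below, had the lowest slc4a1a level. The level differed between the erythroid-like clusters. A cluster of 3313 cells with a median of 711 UMIs, of which 1620 and 1644 were from libraries 1 and 2, had 644, 692, 1035 and 1335 CPM, while clusters of 1275 and 877 cells had 4562 ± 266 and 4976 ± 758, and a cluster of 562 cells, of which 314 and 246 were from libraries 3 and 4, had 6631 and 6782 in these. The paralog slc4a1b did not pass the filter.

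Of 64 members tested in erythroid-like cells, 6 were higher (19.9% of the 20098 genes tested were) and 44 were lower (31.4% of all genes), with medians of -2.33 over these members and -0.23 over all genes on the log2 scale. The second, slc2a1b (GLUT1, the glucose transporter of human red cells), stood at 49.3, 54, 19.9 and 20.3 CPM, against 15.1 ± 3.31 (log2 fold change 1.91, SE 0.38, edgeR adjusted p = 0.00305), with libraries 1 and 2 above libraries 3 and 4. The remaining 4, slc5a8, slc26a11, slc2a8 and slc4a1ap, had log2 fold changes from 0.68 to 1.51 and lost their calls without TMM factors, factors that moved the median of all genes by 0.647 on the log2 scale and without which 1719 genes were higher and 9129 lower, in place of 4004 and 6312. For slc4a1ap the means were 31.3 in erythroid-like and 30.8 CPM in other cells, and 1 of 4 libraries was higher.

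Many lower calls in erythroid-like cells were of tubule genes held by the PTEC-like cells of the reference. slc13a5a had no UMI and was at least 13-fold lower, from a floor of 3 counts over the class. slc22a7b.2 had 0.316 ± 0.293, against 17 ± 1.23 (log2 fold change -5.40, SE 0.68, edgeR adjusted p = 2.35e-04), and with PTEC-like cells out of the reference its log2 fold change was 0.29 and it was not called. Over the 56 members tested both ways, 16 in place of 36 were then lower, all of them among the 36, again without a share over all genes for this reference. slc2a6, highest in macrophage-like cells, had 0.481 ± 0.471 CPM in erythroid-like cells, against 31.8 ± 8.89 in other cells (log2 fold change -5.68, SE 0.63, edgeR adjusted p = 1.18e-04).

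Some members had their highest level outside the nephron and the red cells. slc2a6 stood at 178, 193, 124 and 112 CPM in macrophage-like cells, where it was found in 46.1% of cells, against 3.96 ± 0.613 in neutrophil-like cells, the next class. Most of its UMIs (60.5%) lay in unnamed cells, at 62.5, 68.8, 38.2 and 35.7 CPM, and a cluster of 2542 of these cells had 115, 122, 74.1 and 69.8 CPM, below the macrophage-like cells in each library. slc2a13b stood at 36.4 ± 5.66 there, against 15.3 in DTEC-like cells. Neither gene overlapped the next class. slc4a4b, the paralog of the tubule's slc4a4a, had 93.9 ± 11.3 in macrophage-like and 77.8 ± 19.9 in KMSC-like cells, which overlapped. Most slc4a4b UMIs (59.75%) also lay in unnamed cells. In VEC-like cells, slc22a31 stood at 36.4, 54.6, 116 and 119 CPM, against 19.2 in RIC-like cells and 12.9, 39.8, 9.81 and 48.7 in RSC-like cells with the 38 cells, which overlapped, and slc26a10 at 361, 273, 34.3 and 70.6, overlapping its level in PTEC-like cells (105 ± 39.7). The VEC-like cells had a median depth of 2349 UMIs, and their slc26a10 was higher in libraries 1 and 2 than in libraries 3 and 4, with slc22a31 the other way.

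Among the other blood cells, slc2a3b had 168 ± 51.7 CPM in thrombocyte-like and 121 ± 25 in neutrophil-like cells, and slc2a1b 99.6 ± 15.8 in thrombocyte-like and 66.4 ± 15.4 in T-like cells. slc4a7 had 111 ± 16.4 in neutrophil-like and 88.4 in thrombocyte-like cells, and slc26a2 13.7 ± 3.24 in neutrophil-like cells, against 4.68 in KMSC-like cells without overlap. slc4a11 was highest in T-like cells, at 47.2 ± 20.6. slc26a4, the anion exchanger pendrin, showed as highest in RIC-like cells with 165 and 35.7 CPM in libraries 1 and 2 and 0 in libraries 3 and 4, but 52 of its 63 UMIs there (82.5%) came from 1 cell. Of the remaining members, slc5a5 (the iodide transporter) and slc5a7a (a choline transporter) had mean levels under 2 CPM in every class.

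Genes that work beside these transporters were counted by lists. They were free to take part in the clustering, so that their differences are a description and no independent test. Over all genes tested, 19.1% were higher and 23.9% lower in PTEC-like cells, 20.1% and 24.6% in DTEC-like cells, and 19.9% and 31.4% in erythroid-like cells. Against all other cells, 7 of 9 enzymes of fructose and glucose synthesis tested were higher in PTEC-like cells and none lower, among them g6pca.2, which releases glucose from its phosphate, at 1727 ± 376 against 3.58 ± 3.67 CPM. Of 6 genes for PDZ scaffolds, which hold phosphate and other carriers at the apical membrane, and their partners (ezrins and pdzk1ip1, a small membrane protein that binds Pdzk1), 4 were higher, among them pdzk1 at 1441 ± 513 against 3.37 ± 0.468 CPM and pdzk1ip1 at 1894 ± 134 against 3.3 ± 1.96 CPM. Of 6 proximal tubule transcription factor genes, 4 were higher, among them hnf4a at 66.6 ± 23.5 against 0.197 ± 0.0961 CPM, and none was lower. Sodium pump and proton exchange genes were divided, with 4 of 9 higher, such as atp1a1a.1 at 2231 ± 543 against 172 ± 6.74 CPM, and 4 lower. In DTEC-like cells 8 of these 9 were higher and 1 lower. Of 21 glycolysis genes, 7 were higher and 6 lower in PTEC-like cells, not far from the shares over all genes. Of 6 carbonic anhydrase genes tested, 2 were higher and 1 lower in PTEC-like cells, and 3 were higher and 2 lower in DTEC-like cells.

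In erythroid-like cells, the membrane skeleton partners of slc4a1a went the same way, with 10 of 13 higher and 2 lower. epb41b, which links spectrin to the membrane, stood at 1995 ± 55 against 52 ± 10.7 CPM and sptb (beta spectrin) at 1293 ± 75.4 against 47.8 ± 6.45 CPM. rhag, the Rh-associated glycoprotein that sits with band 3 in the red cell membrane, and aqp1a.1, a water channel, were also higher. Of 20 glycolysis genes, 1 was higher, pfkma, and 16 were lower. All 6 carbonic anhydrase genes tested were lower, such as ca2 at 1.08 ± 0.603 against 76.4 ± 10.2 CPM. cahz, a carbonic anhydrase gene among the leading genes of the erythroid-like clusters, was not in that list.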

How the data were processed

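The deposited tables, 1 per library, hold raw UMI counts for genes and cells, which the authors made from BD Rhapsody reads with UMI-tools at default parameters after a read check with fastp, and which GEO's processing notes, per the labels, also tie to GRCz11 and Seurat 4.2. The sources used here do not give the aligner, the annotation, strand handling or the thresholds for keeping cells. All 31008 deposited barcodes were kept, with no further filter on cells, and no per-sample column was left out (0 not used). The total was 286049833 UMIs, 59703380, 59350367, 87759842 and 79236244 per library, and the summed PTEC-like cells held 876505 to 1326135 UMIs per library.

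Members and gene lists were chosen with earlier results of these data known, and the kidney markers with the study's own tables seen. With Seurat 5.3.0 in R 4.3.3, 2000 variable genes without the members were scaled within each library, and 30 principal components were clustered at resolution 0.6 (20 components for the nephron cells). A cluster was named where its markers averaged a log2 ratio of at least 1 over other cells (pseudocount 10 CPM), at least 3 markers were detected and no other class led its top 10 genes. Much shallower clusters also needed a marker of their class among these genes. Clusters with at least 3 genes of a list of plasma protein genes in their top 10 stayed unnamed, a rule added after seeing the clusters. Rebuilt names can differ from the study's. Scrublet (scanpy 1.11.5, Python 3.11.15) called 0.232% of cells in library 1 as doublets, too few to rely on, and 1.01 to 1.62% in the others. No cell was removed for this, and an alternative removed the 6% with the highest scores in each library.

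UMIs were summed per library and class (at least 3 cells) and tested with edgeR 4.0.16 (quasi-likelihood, TMM, filterByExpr, Benjamini-Hochberg over all genes tested, threshold 0.05). "Other cells" are all other cells of a library, unnamed ones included. Statistics are given in full for at most the 6 members with the largest positive and the 6 with the largest negative called log2 fold change in each comparison, for slc4a1a in erythroid-like cells, and for slc4a2a, chosen after its values were seen. The sums of 1 library are paired by the library itself: deviations from the class means correlated at 0.372 to 0.7 within a library. On simulated data for PTEC-like against other cells (19716 genes), 93.9% of genes changed by a log2 fold of 4 and 48.9% of those changed by 2 were recovered, and 9 of 18880 unchanged genes were called. The recovered shares were 88.7% and 34.4% for DTEC-like cells and, the lowest, 79.4% and 24.7% for RSC-like cells. In the remaining comparisons they were higher than for PTEC-like cells. Members not called in DTEC-like or RSC-like cells may therefore still differ. Alternatives were DESeq2 1.42.0, no TMM, no filter, the library block, each library left out, each library pair alone, joint scaling, resolution 1, removal of high doublet scores, and changes to the cells of a class or of its reference added after seeing the data.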

Additional observations from a re-analysis of the deposited data

Results flagged for a closer look

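Each of the 79 members was examined in the class of its highest mean level for 1 library far from the other 3 (gap over range above 0.829). Chance gives about 1 in 20 for values not chosen by their mean. Here the class was chosen by its mean, which 1 high library can raise, so that this rate need not hold. Among members with at least 20 UMIs in that class, this held for 2, both in PTEC-like cells. slc26a3.1, slc26a3.2, slc4a1b and slc5a5 also passed this limit, on 1 to 5 UMIs each. slc13a2 stood at 89.4 CPM in library 4, against 0, 1.14 and 3.02 in libraries 1 to 3. slc34a2a stood at 36.4 CPM in library 4. Both values come from the same single cell of 41801 UMIs in the chia.1-led sub-cluster, which held 113 slc13a2 and 46 slc34a2a UMIs.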

How the results depend on the processing

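Counts of members in the alternatives stand without a share over all genes, except where one was given above for TMM factors. They describe how the calls moved and do not compare members with other genes. The counts for PTEC-like against other cells were within 1.5 times their main values in the 15 alternatives that gave a value (40 to 43 members higher and 7 to 9 lower with 1 library left out). Under joint scaling neither the PTEC-like nor the RSC-like class was named, so that no comparison of these classes was possible there. A cluster of 398 cells scored highest for the PTEC markers, with plasma protein genes among its leading genes. It stayed unnamed through the rule on such genes, which was added after seeing the clusters. DTEC-like cells had 14 members higher with libraries 3 and 4 alone, and 21 higher and 6 lower with PTEC-like and erythroid-like cells out of the reference, where slc22a6l (log2 fold change 0.46), slc22a7b.2 (1.24), slc13a3 (0.67) and slc22a2 (0.40) changed sign. For PTEC-like against DTEC-like cells, 2 to 4 members were lower with 1 library left out, 2 of them without library 1. RSC-like cells had 2 members higher without the highest doublet scores and 8 lower with the reduced reference. Erythroid-like cells had 2 members higher without TMM factors, 3 to 4 with 1 library left out, 3 of them without library 1, and 16 lower with the reduced reference, where slc22a7b.2 was at 0.29.

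For slc12a3-positive against slc12a3-negative cells, the members higher (2) were 0 without TMM factors, 0 to 1 with 1 library left out, 1 with libraries 1 and 2 alone, 0 at resolution 1, 1 without high doublet scores and 1 without the sub-clusters led by blood or mitochondrial genes. The members lower (0) were 2 with DESeq2, 1 without TMM factors, 2 without the filter, 0 to 2 with 1 library left out (2 without library 4), 2 with libraries 1 and 2 alone, 3 with libraries 3 and 4 alone, 2 under joint scaling, 1 at resolution 1 and 1 without the positive sub-cluster led by mitochondrial genes. The cause was not tested.

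With the library as a block (paired sums), members higher and lower were 43 and 9 for PTEC-like, 9 and 25 for DTEC-like, 30 and 6 for PTEC-like against DTEC-like, 4 and 30 for RSC-like, 6 and 47 for erythroid-like and 3 and 1 for slc12a3-positive cells. Among the called members given with full statistics, the block changed the call of slc22a17 alone. The comparisons in which slc4a2a was not called were no part of this check.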

Other observations

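The multiciliated-type sub-cluster of 64 nephron cells, most of them within the DTEC-like class, held slc4a2a at a mean of 442, slc5a8l at 57.9 and slc26a1 at 43.3 CPM. In the unnamed cluster of 21 cells led by plasma protein genes, slc13a5a stood at 85.1 and 65.0 CPM in libraries 1 and 2, beside its slc2a2. An unnamed cluster of 879 cells held slc4a1a at 1364 ± 281 CPM over the 4 libraries. These values were not compared by a test.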
